A study of Homo sapiens with 24 samples.

Results

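The HER2 amplicon region of chromosome band 17q12 was described here gene by gene, in HER2-positive breast cancer cells in which TFAP2C had been knocked down. The region was taken as chr17:36500000-38300000 (GRCh37). Its members were the gene symbols whose deposited loci lie inside that window, apart from ERBB2, RPL19 and RPL23. There were 54 members among 28284 symbols, with 112 RefSeq entries in each of the 3 genome-wide tables. Of these, 33 reached 5 FPKM (fragments per kilobase of transcript, scaled to the number of mapped fragments) in at least 1 of the 6 groups, and they are described singly. The other 21 stayed below that level.

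ERBB2 encodes the receptor tyrosine kinase HER2, and in HER2-positive tumours it is overexpressed because its chromosome segment is present in extra copies. The neighbours of ERBB2 that lie on the amplified segment, among them GRB7, STARD3, PGAP3 and MIEN1, are usually overexpressed with it. The ends of the segment differ between tumours and between cell lines. TFAP2C encodes AP-2gamma, a transcription factor that is known to bind regulatory sequence of ERBB2 and that recognises a short GC-rich palindrome.

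RNA was sequenced from 24 samples in 8 groups of 3, and the region was read in 6 of those groups. HCC1954 and SKBR3 are established lines from HER2-positive breast carcinomas. The HCC1954 shAP2C group was a stable knockdown made with a lentiviral shRNA cassette against TFAP2C, and HCC1954 shNT carried the negative control cassette; the labels call both cell clones and do not say how many clones there were. The HCC1954 siAP2C and SKBR3 siAP2C groups were transfected with TFAP2C siRNA, and HCC1954 siNT and SKBR3 siNT with the negative control siRNA, for 72 to 96 h with a lipid reagent. The remaining pair of groups, in the line HCC1569, is deposited as a table of 68 entries. That table holds 1 member, ARHGAP23, which the authors' deposited table lists at 0.965 FPKM in HCC1569 siAP2C and 1.60 FPKM in HCC1569 siNT, without a test.

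The authors deposited a single FPKM for each entry in each group, with its samples pooled. No level below therefore has a spread between replicates, and the depth of the samples is unknown. A member's level is its FPKM summed over its RefSeq entries. A member is said to rise or fall only where its leading entry, the entry with the highest mean FPKM of the 2 groups, had a q-value under 0.05 in the authors' deposited table. Whether the 3 samples of a group were separate cultures is not stated, so a q-value reflects only the spread among those samples, which may be technical. The labels add that the lines were not authenticated by the submitters. The standard errors given for log2 ratios of leading entries are the ratio over the deposited test statistic.

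TFAP2C stood at 3.46 FPKM in HCC1954 shAP2C against 81.0 in shNT, at 21.98 in HCC1954 siAP2C against 92.4 in siNT, and at 53.9 in SKBR3 siAP2C against 157 in siNT. ERBB2 was 73.3-fold lower in HCC1954 shAP2C (20.8 FPKM against 1525 in shNT) and 1.82-fold lower in SKBR3 siAP2C (609 FPKM against 1109 in siNT), and it stood at 4016 FPKM in HCC1954 siAP2C against 4676 in siNT, which was not called. The shAP2C group stood apart from all others, and whether its cells are HCC1954 cells, as labelled, was not tested. Of the tested symbols, 75.4% were called in the shRNA comparison, against 33.1% with siRNA in SKBR3 and 3.19% with siRNA in HCC1954. All 4 basal markers (KRT5, KRT14, KRT17 and TP63) were below 1 FPKM in shAP2C, with a sum of 0.640 FPKM and TP63 at 0, against a sum of 655 FPKM in shNT and of 727 and 418 FPKM in HCC1954 siAP2C and siNT. The 4 luminal markers summed to 7.01 FPKM in shAP2C against 122 in shNT, and 4 of 5 epithelial markers were at least 1 FPKM in shAP2C, where KRT7 stood at 0.550 FPKM against 639 in shNT and EPCAM at 161 FPKM against 112 in shNT. In SKBR3, CDH1 was at 0.0970 FPKM in siAP2C and 0.0894 in siNT, and the other 4 epithelial markers were above 1 FPKM. The 3 leukocyte markers were below 1 FPKM in every group, and endothelial markers summed to 0.105 FPKM in shAP2C against 11.6 in shNT. The results with siRNA in the same line are therefore given beside each result with shRNA.

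Promoters are shown for the members with the largest falls with shRNA that have an entry in the RefSeq promoter table, which is of build GRCh38.p14; each sequence was matched here to GRCh37. GRB7, GSDMB and TCAP are not in that table. Each promoter runs from 250 bases before to 50 bases after the transcription start, and capitals mark the AP-2 consensus GCCNNNGGC, which reads the same on both strands. The promoter of PGAP3 lies at chr17:37844261-37844560 on the minus strand, that of STARD3 at chr17:37793147-37793446 on the plus strand, that of ORMDL3 at chr17:38083805-38084104 on the minus strand and that of MIEN1 at chr17:37886736-37887035 on the minus strand.
STARD3: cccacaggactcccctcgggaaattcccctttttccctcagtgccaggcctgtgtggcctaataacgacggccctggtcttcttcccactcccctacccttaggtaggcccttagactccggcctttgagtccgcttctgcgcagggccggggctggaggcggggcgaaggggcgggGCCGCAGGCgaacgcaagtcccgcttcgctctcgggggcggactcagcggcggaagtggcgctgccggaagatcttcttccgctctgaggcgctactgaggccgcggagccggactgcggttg
PGAP3: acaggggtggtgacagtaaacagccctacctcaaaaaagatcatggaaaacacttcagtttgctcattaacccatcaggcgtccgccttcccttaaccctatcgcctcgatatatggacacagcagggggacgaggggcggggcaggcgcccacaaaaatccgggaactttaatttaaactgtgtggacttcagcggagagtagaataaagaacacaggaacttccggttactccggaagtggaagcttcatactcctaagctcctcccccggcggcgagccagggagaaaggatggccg
MIEN1: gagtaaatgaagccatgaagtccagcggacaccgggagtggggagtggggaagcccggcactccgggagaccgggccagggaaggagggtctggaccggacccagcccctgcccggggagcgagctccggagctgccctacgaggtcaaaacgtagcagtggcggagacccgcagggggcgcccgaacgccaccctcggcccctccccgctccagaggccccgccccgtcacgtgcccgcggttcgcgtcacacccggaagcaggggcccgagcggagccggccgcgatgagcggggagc
ORMDL3: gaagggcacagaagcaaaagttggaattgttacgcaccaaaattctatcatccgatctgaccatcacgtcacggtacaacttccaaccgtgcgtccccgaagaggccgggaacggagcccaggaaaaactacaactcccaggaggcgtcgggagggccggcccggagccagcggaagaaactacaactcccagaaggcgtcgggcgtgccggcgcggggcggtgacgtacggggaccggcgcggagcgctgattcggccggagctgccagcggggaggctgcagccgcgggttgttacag

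The STARD3 promoter held 1 match to the consensus, 73 bases before its transcription start, and the other 3 promoters held none. Of 31 promoters that could be matched to 28 members, 11 (35.5%) of 10 members held the consensus, against 8146 (23.2%) of all 35116 promoters in the table. LASP1 had 3 matches and CISD3 had 2, and both lie outside the stretch of large falls described below. A match is a description of the letters and not evidence of binding.

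MIR4728, a microRNA gene inside ERBB2 (chr17:37882748-37882814, plus strand), is the member with the widest gap in FPKM between groups of the same line. It was listed at 1194 FPKM in HCC1954 siAP2C and 2679 FPKM in HCC1954 siNT, and at 0 in the other 4 groups. Its locus is inside that of ERBB2, and no source used here states a strand setting for the counting. Reads of the host transcript and of the microRNA gene cannot be told apart. The siRNA difference was not called (q = 0.815 in the authors' deposited table). The RefSeq mature sequences are shown because the arms have different seeds (bases 2 to 8, in capitals).
hsa-miR-4728-5p: uGGGAGGGgagaggcagcaagca
hsa-miR-4728-3p: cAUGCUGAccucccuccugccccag

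Before knockdown, the lines differed along the region in blocks. Genes from PPP1R1B to GSDMA, around ERBB2, were higher in HCC1954, while the 4 described genes before them, CACNB1, FBXL20, MED1 and CDK12, were higher in SKBR3. Over the 36 members with a mean of at least 1 FPKM, the median log2 ratio of HCC1954 siNT over SKBR3 siNT was 1.56, and 23 members were over 2-fold higher and 8 over 2-fold lower in HCC1954. The members over 2-fold higher include the small RNA genes MIR4728, SNORA21 and SNORD124, at 0 in SKBR3 siNT, and SNORA21B. Those at 0 in SKBR3 siNT were below the filter for shNT and are not in the shNT counts below. Over all 13098 symbols the median was 0.12, with 24.8% over 2-fold higher and 18.1% over 2-fold lower. In the 2 Mb before the region the median was 1.51, with 63.2% over 2-fold higher and 0% over 2-fold lower. The higher levels in HCC1954 siNT were thus not particular to the region. In the 2 Mb after it the median was -0.37, with 31.4% over 2-fold higher and 31.4% over 2-fold lower. The other HCC1954 control, shNT, had a median of 0.47 over 30 members, with 14 over 2-fold higher and 11 over 2-fold lower. Over all symbols its median was 0.14, with 23.5% over 2-fold higher and 16.3% over 2-fold lower. For shNT the median was 1.30 in the 2 Mb before the region, above that of the region, and -0.70 in the 2 Mb after it. These tables were normalized separately, each group is 1 pooled value, and no test of the difference between lines could be made.

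Small RNA genes aside, ORMDL3, an endoplasmic reticulum protein that regulates sphingolipid synthesis, had the highest level of the described genes in both HCC1954 controls, at 2383 FPKM in HCC1954 siNT and 1593 in HCC1954 shNT against 130.1 in SKBR3 siNT. In SKBR3 siNT the highest was MIEN1, at 402 FPKM. GRB7, an adaptor that binds phosphorylated HER2, stood at 1959 and 450.3 FPKM in HCC1954 siNT and shNT against 120.3 in SKBR3 siNT. All 10 described genes from PPP1R1B to GSDMA were higher in HCC1954 siNT than in SKBR3 siNT, and 7 were higher in HCC1954 shNT. GSDMB and IKZF3 were the exceptions in shNT: GSDMB stood at 649 FPKM in HCC1954 siNT and 61.4 in HCC1954 shNT, against 263 in SKBR3 siNT. The HCC1954 controls thus differed from each other as well, with GSDMB 10.6-fold and PPP1R1B 7.55-fold higher in siNT than in shNT. The median over all 13107 symbols was -0.03 on the log2 scale, which does not show how common differences of that size were.

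The neighbouring block of genes ran the other way. CDK12, a kinase of the RNA polymerase II tail, stood at 17.9 FPKM in HCC1954 siNT and 30.2 in shNT against 163 in SKBR3 siNT, and MED1, a Mediator subunit that contacts nuclear receptors, at 19.2 and 16.4 FPKM in HCC1954 siNT and shNT against 152 in SKBR3 siNT. CACNB1, a calcium channel subunit, was nearly absent from HCC1954, at 0.0202 FPKM in siNT and 0.0119 in shNT against 5.88 in SKBR3 siNT. Beyond ORMDL3, PSMD3, MED24 and MSL1 were also 2.61-fold, 3.70-fold and 3.37-fold higher in SKBR3 siNT than in HCC1954 siNT. At the start of the region, ARHGAP23 was 223-fold higher in HCC1954 siNT than in SKBR3 siNT, where it stood at 0.0232 FPKM. Of the 13 described members from SOCS7 to LASP1, 11 were higher in HCC1954 siNT and 9 in HCC1954 shNT than in SKBR3 siNT.

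**Figure D1:**
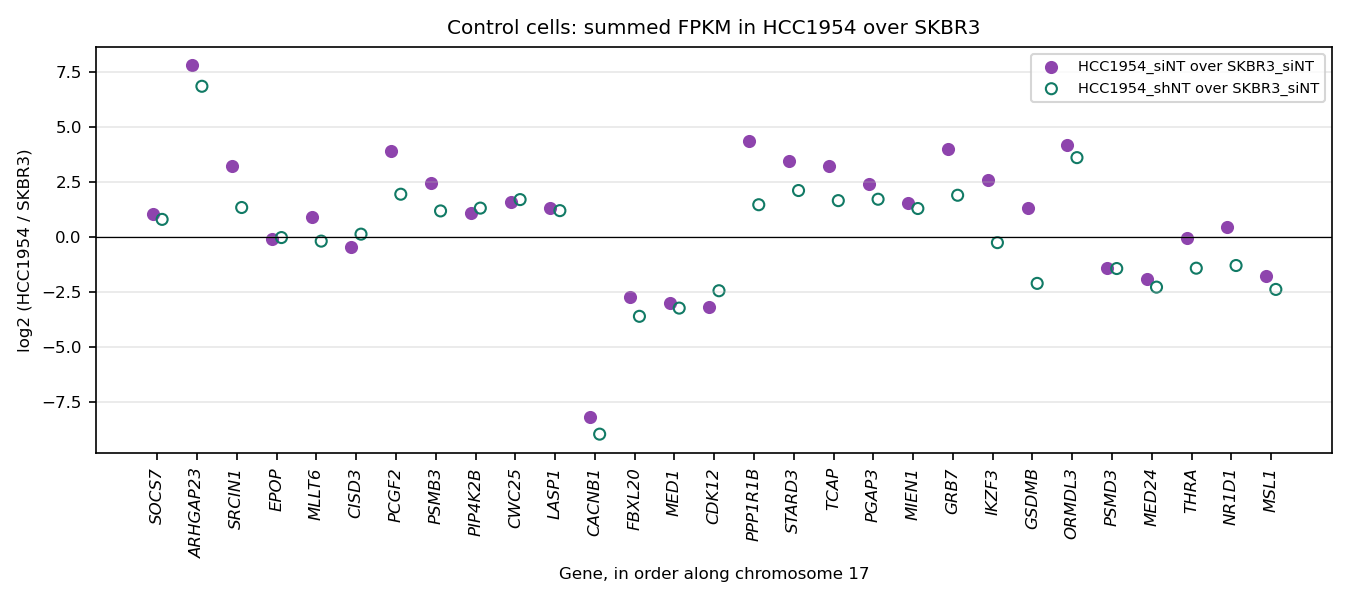
Log2 ratio of summed FPKM in HCC1954 control cells over SKBR3 siNT control cells, by gene in order along chromosome 17; filled points are HCC1954 siNT, open points HCC1954 shNT, and each is 1 pooled value without an error. CACNB1, FBXL20, MED1 and CDK12 lie below 0 for both controls, and STARD3, PGAP3, MIEN1, GRB7 and ORMDL3 lie above 0 for both.

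With shRNA in HCC1954, the 7 tested genes of a run of neighbours around ERBB2 fell by 24.8- to 63.8-fold, while the tested genes on either side of the run fell by at most 2.09-fold, rose or were not called. The run, PPP1R1B to GSDMA, spans chr17:37782993-38134021, or 351 kb, and its limits were drawn after the values were seen. The tested members were STARD3, TCAP, PGAP3, MIEN1, GRB7, GSDMB and ORMDL3. Among untested genes, PPP1R1B was 24.6-fold and IKZF3 18.1-fold lower inside the run, and outside it the low gene STAC2, with 0.0376 FPKM in shAP2C against 1.15 in shNT, was 30.6-fold lower. Of its 14 members, 12 were lower in shAP2C than in shNT; ZPBP2 was at 0.0206 FPKM in shAP2C against 0 in shNT, and MIR4728 was at 0 in both. CDK12, 59.2 kb before the run, was 1.64-fold lower in shAP2C. PSMD3, 3.04 kb after the end of the run at GSDMA and 53.2 kb after ORMDL3, stood at 96.0 FPKM in shAP2C against 97.1 in shNT. The leading entry of PSMD3 had a log2 ratio of -0.02 (SE 0.129, 95% interval -0.27 to 0.24). In bulk RNA, fewer cells with a transcript and less of it per cell cannot be told apart.

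Over the whole region, 24 members were tested with shRNA, of which 9 rose and 13 fell, against 36.3% rising and 39.1% falling among all tested symbols. The share rising was thus near the background, and the share falling was above it, as it was in the flanking genes given below. By size, 8 members with a mean of at least 1 FPKM were over 16-fold lower, against 4.59% of all 13281 such symbols. These members all lie inside the run, whose limits were drawn after the values were seen. With siRNA, 1 member was over 16-fold lower in each line, both small RNA genes at 0 in siAP2C: SNORD124 in HCC1954 (0.633% of all symbols) and SNORA21B in SKBR3 (0.236%). The median log2 ratio of 29 members was -0.11 (quartiles -4.27 and 0.80), against 0.00 over all symbols. The knockdown and the derivation of the clones share 1 contrast, so they cannot be told apart, and the part in these falls of the marker differences given above, or of the identity of the shAP2C cells, was not tested. With siRNA in HCC1954, where TFAP2C was 4.20-fold lower, none of the 9 tested members of the run was called, and with siRNA in SKBR3 1 of 7 was called, ORMDL3, which rose.

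**Figure D2:**
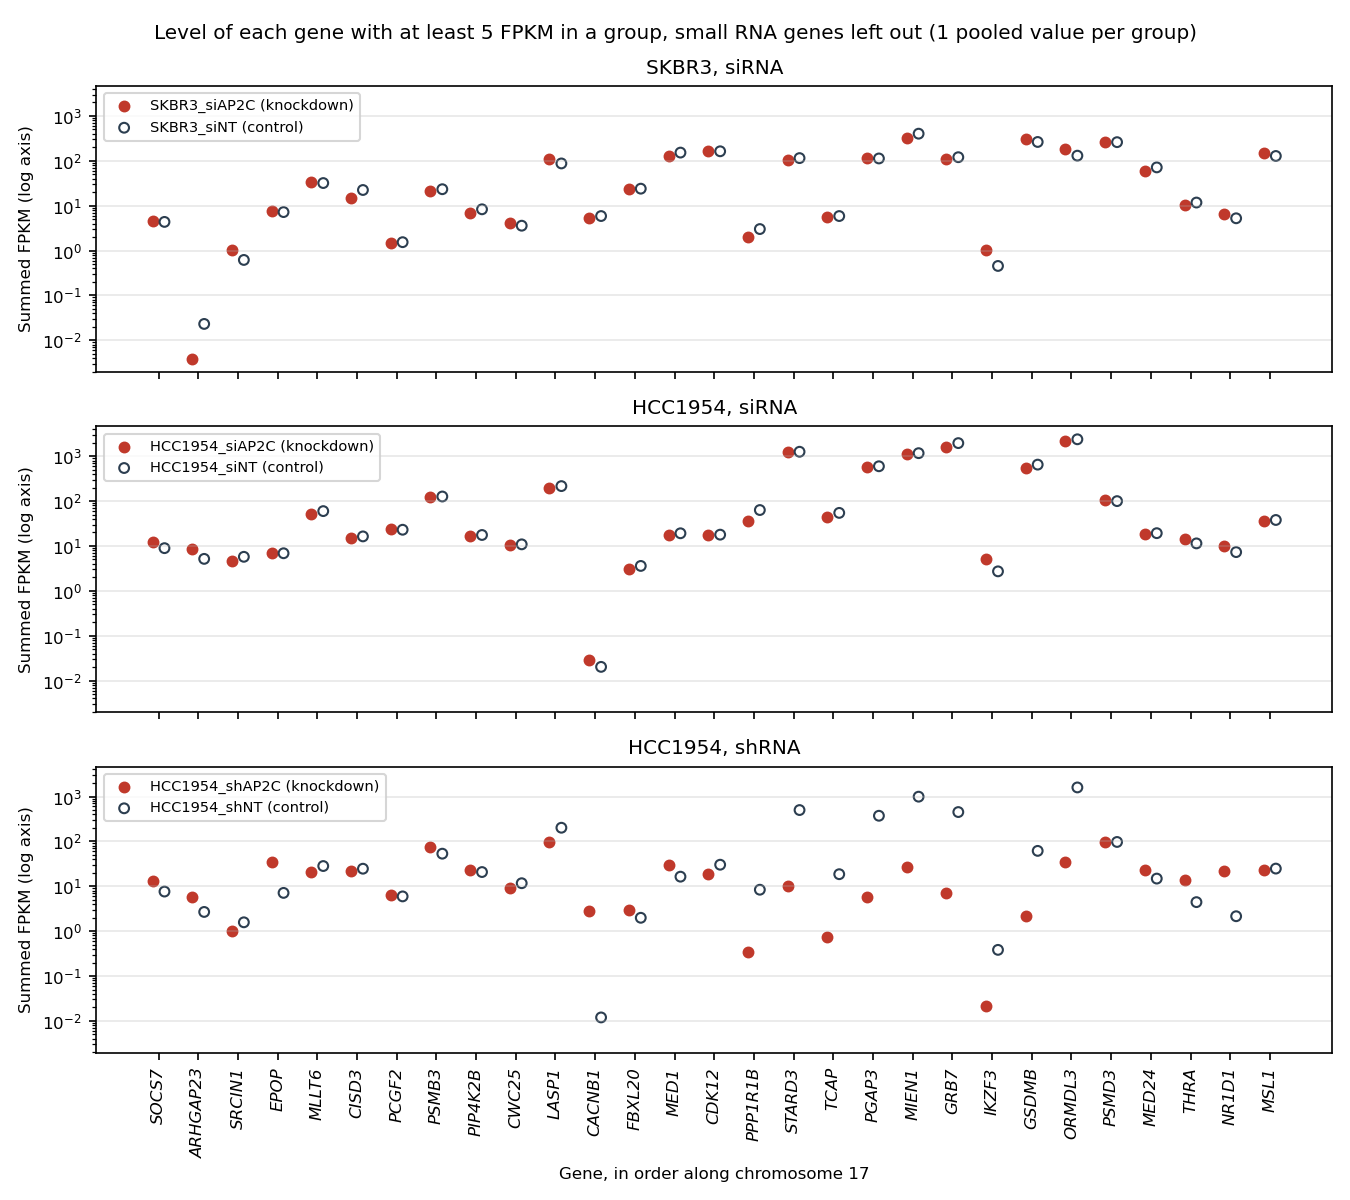
Summed FPKM (log axis) of the 29 described members that are not small RNA genes, in order along chromosome 17; each panel shows 1 comparison, with the knockdown group as filled points and its control as open points, each 1 pooled value. The points of a gene lie close together in both siRNA panels for most genes, and in the shRNA panel they separate from PPP1R1B to ORMDL3, for example 10.1 against 499 FPKM for STARD3.

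Of the signalling and adaptor genes of the run, GRB7 and TCAP fell with shRNA and the others were not tested. GRB7 (chr17:37894180-37903544, plus strand) stood at 7.08 FPKM in HCC1954 shAP2C against 450.3 in shNT, at 1581 in HCC1954 siAP2C against 1959 in siNT, and at 110.2 in SKBR3 siAP2C against 120.3 in siNT. With shRNA its leading entry fell by 6.20 on the log2 scale (SE 1.61, q = 1.21e-04 in the authors' deposited table), and all 5 of its entries fell. TCAP, which encodes the sarcomere protein telethonin (chr17:37821602-37822807, plus strand), stood at 0.748 FPKM in HCC1954 shAP2C against 18.6 in shNT, at 44.02 in HCC1954 siAP2C against 54.6 in siNT, and at 5.64 in SKBR3 siAP2C against 5.87 in siNT. TCAP fell with shRNA. PPP1R1B, the phosphatase regulator DARPP-32, was not tested with shRNA, where it stood at 0.340 FPKM in shAP2C against 8.37 in shNT; with siRNA it stood at 35.9 FPKM in HCC1954 siAP2C against 63.2 in siNT and at 2.04 FPKM in SKBR3 siAP2C against 3.01 in siNT. IKZF3, a lymphoid zinc finger transcription factor listed with them, was low and untested throughout: 0.0212 FPKM in HCC1954 shAP2C against 0.383 in shNT, 5.20 in HCC1954 siAP2C against 2.72 in siNT, and 1.03 in SKBR3 siAP2C against 0.454 in siNT.

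The lipid genes of the run fell together with shRNA. STARD3, a cholesterol-binding protein of late endosomes (chr17:37793343-37820454, plus strand), stood at 10.1 FPKM in HCC1954 shAP2C against 499 in shNT, at 1228 in HCC1954 siAP2C against 1257 in siNT, and at 103 in SKBR3 siAP2C against 115 in siNT. The log2 ratio of its leading entry with shRNA was -5.59 (SE 0.213). PGAP3, which remodels the fatty acids of glycosylphosphatidylinositol anchors (chr17:37827375-37853050, minus strand), stood at 5.84 FPKM in HCC1954 shAP2C against 372 in shNT, at 560.4 in HCC1954 siAP2C against 597 in siNT, and at 113 FPKM in both SKBR3 groups. All 5 of its tested entries fell with shRNA. ORMDL3 (chr17:38077294-38083854, minus strand) stood at 35.4 FPKM in HCC1954 shAP2C against 1593 in shNT and at 2227 FPKM in HCC1954 siAP2C against 2383 in siNT, where the authors' test failed for all 4 of its entries. In SKBR3 it rose 1.43-fold, with 186 FPKM in siAP2C against 130.1 in siNT (q = 4.41e-04 in the authors' deposited table). ORMDL3 was thus called in opposite directions in the comparisons that tested it.

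MIEN1, a membrane-anchored protein linked to cell migration (chr17:37884749-37886785, minus strand), stood at 26.2 FPKM in HCC1954 shAP2C against 991 in shNT, at 1096 in HCC1954 siAP2C against 1169 in siNT, and at 328 in SKBR3 siAP2C against 402 in siNT. Both of its entries fell with shRNA and neither was called with siRNA. PGAP3 and MIEN1 overlap ERBB2 at its ends on the opposite strand, so their reads cannot be told apart from those of ERBB2 in the overlaps. GRB7, STARD3 and ORMDL3 do not overlap ERBB2, and they fell by 63.6-, 49.6- and 44.9-fold. The part of the overlap in the PGAP3 and MIEN1 values was not tested. GSDMB, a gasdermin, the family of pore-forming proteins of inflammatory cell death (chr17:38060848-38076107, minus strand), stood at 2.20 FPKM in HCC1954 shAP2C against 61.4 in shNT, at 541 in HCC1954 siAP2C against 649 in siNT, and at 306 in SKBR3 siAP2C against 263 in siNT. GSDMB fell with shRNA and was not called with siRNA. In shNT cells, STARD3 lay at percentile 99.4 and GRB7 at 99.3 of the levels of 13645 symbols; in shAP2C cells they lay at percentiles 49.3 and 39.6.

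The genes listed under transcription and chromatin, a list that does not hold IKZF3, lie outside the run. With shRNA 5 of 9 tested rose and 3 fell, against 36.3% and 39.1% of all tested symbols, so a high share of calls was common to the comparison. NR1D1, the circadian repressor REV-ERB alpha, rose 10.3-fold, with 22.2 FPKM in HCC1954 shAP2C against 2.15 in shNT; it stood at 9.93 FPKM in HCC1954 siAP2C against 7.30 in siNT and at 6.65 in SKBR3 siAP2C against 5.24 in siNT. THRA, a thyroid hormone receptor that overlaps NR1D1 on the other strand, rose with shRNA to 14.0 FPKM in shAP2C, against 4.43 in shNT, and stood at 14.2 FPKM in HCC1954 siAP2C against 11.4 in siNT and at 10.5 in SKBR3 siAP2C against 11.7 in siNT. Reads from the overlap of this pair cannot be told apart without strand. EPOP, a partner of the Polycomb complex PRC2, rose with shRNA to 34.8 FPKM in shAP2C, against 7.12 in shNT, and stood at 6.95 FPKM in HCC1954 siAP2C against 6.88 in siNT and at 7.69 in SKBR3 siAP2C against 7.20 in siNT. In EPOP the shAP2C group stood apart, and the other 5 groups lay between 6.88 and 7.69 FPKM.

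Both Mediator subunits rose with shRNA. MED1 stood at 29.96 FPKM in HCC1954 shAP2C against 16.4 in shNT, at 17.5 in HCC1954 siAP2C against 19.2 in siNT, and at 128 in SKBR3 siAP2C against 152 in siNT. MED24 stood at 22.7 FPKM in HCC1954 shAP2C against 14.8 in shNT, at 18.6 in HCC1954 siAP2C against 19.3 in siNT, and at 59.1 in SKBR3 siAP2C against 71.3 in siNT, where it fell (q = 0.0145 in the authors' deposited table). MED24 was thus called in opposite directions in HCC1954 with shRNA and SKBR3 with siRNA. CDK12 fell with shRNA, with 18.4 FPKM in shAP2C against 30.2 in shNT, and stood at 17.5 FPKM in HCC1954 siAP2C against 17.9 in siNT and at 169 in SKBR3 siAP2C against 163 in siNT. MLLT6, a PHD finger protein found in leukaemia fusions, fell with shRNA, with 20.7 FPKM in shAP2C against 28.2 in shNT; it stood at 51.9 FPKM in HCC1954 siAP2C against 59.8 in siNT and at 33.4 in SKBR3 siAP2C against 31.9 in siNT. These shifts were all under 2-fold, far from those inside the run.

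MSL1, a scaffold of a histone H4 acetylation complex, stood at 23.0 FPKM in HCC1954 shAP2C against 24.8 in shNT, at 36.6 in HCC1954 siAP2C against 37.9 in siNT, and at 151 in SKBR3 siAP2C against 128 in siNT. The deposited q-values called MSL1 as falling with shRNA (q = 0.0355 in the authors' deposited table) and as rising in SKBR3 (q = 0.0471 in the same source). PCGF2, a Polycomb ring finger protein, was not called in HCC1954 and not tested in SKBR3. It stood at 6.33 FPKM in HCC1954 shAP2C against 5.94 in shNT, at 23.5 in HCC1954 siAP2C against 23.0 in siNT, and at 1.49 in SKBR3 siAP2C against 1.54 in siNT.

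Signalling and cytoskeletal genes outside the run moved both ways with shRNA. LASP1, an actin-binding LIM protein first cloned from breast cancer metastases, fell, with 96.5 FPKM in HCC1954 shAP2C against 201 in shNT; it stood at 195 FPKM in HCC1954 siAP2C against 216 in siNT and at 109 in SKBR3 siAP2C against 87.3 in siNT. ARHGAP23 rose in both HCC1954 comparisons, with 5.89 FPKM in shAP2C against 2.68 in shNT and 8.43 FPKM in siAP2C against 5.16 in siNT. It was untested in SKBR3, at 0.00383 FPKM in siAP2C against 0.0232 in siNT. SOCS7, a cytokine signalling suppressor, also rose in both HCC1954 comparisons, with 13.4 FPKM in shAP2C against 7.62 in shNT and 12.5 FPKM in siAP2C against 8.94 in siNT, and stood at 4.50 FPKM in SKBR3 siAP2C against 4.35 in siNT. These 2 genes at the start of the region were the only members called in both HCC1954 comparisons. A call with shRNA was common, as 75.4% of all tested symbols were called there and 36.3% rose. The share of all symbols called in both comparisons was not worked out, so whether this overlap exceeds the background was not tested. For both genes the siRNA interval from the deposited statistic held 0, at -0.007 to 1.42 for ARHGAP23 and -0.118 to 1.08 for SOCS7.

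PIP4K2B, a phosphoinositide kinase, was called in opposite directions, with 23.1 FPKM in HCC1954 shAP2C against 20.7 in shNT and 6.75 FPKM in SKBR3 siAP2C against 8.30 in siNT; in HCC1954 siAP2C it stood at 17.1 FPKM against 17.6 in siNT. CACNB1 stood at 2.76 FPKM in HCC1954 shAP2C against 0.0119 in shNT, without a test, at 0.0286 in HCC1954 siAP2C against 0.0202 in siNT, and at 5.34 in SKBR3 siAP2C against 5.88 in siNT. CACNB1 was therefore nearly absent from every HCC1954 group except shAP2C. SRCIN1, an inhibitor of the kinase SRC, stood at 1.00 FPKM in HCC1954 shAP2C against 1.57 in shNT, at 4.54 in HCC1954 siAP2C against 5.74 in siNT, and at 1.05 in SKBR3 siAP2C against 0.618 in siNT. It was tested in HCC1954 with siRNA alone and not called.

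Genes of RNA and protein turnover, and the redox gene CISD3, followed no common direction. PSMD3, a proteasome lid subunit, was called in no comparison and stood at 107 FPKM in HCC1954 siAP2C against 99.9 in siNT and at 261 in SKBR3 siAP2C against 260.2 in siNT. PSMB3, a subunit of the proteasome core, rose with shRNA to 75.1 FPKM in shAP2C, against 53.2 in shNT, and stood at 125 FPKM in HCC1954 siAP2C against 127 in siNT and at 21.6 in SKBR3 siAP2C against 23.3 in siNT. CWC25, a splicing factor, fell with shRNA, with 8.92 FPKM in shAP2C against 11.7 in shNT, and stood at 10.5 FPKM in HCC1954 siAP2C against 10.9 in siNT and at 4.02 in SKBR3 siAP2C against 3.58 in siNT. FBXL20, a substrate receptor of ubiquitin ligases, was called nowhere, with 3.004 FPKM in HCC1954 shAP2C against 1.98 in shNT, 3.07 in HCC1954 siAP2C against 3.59 in siNT, and 23.9 in both SKBR3 groups. CISD3, a mitochondrial iron-sulfur protein that overlaps PCGF2, fell in 2 comparisons, with 21.9 FPKM in HCC1954 shAP2C against 24.6 in shNT and 14.99 FPKM in SKBR3 siAP2C against 22.4 in siNT, and stood at 15.3 FPKM in HCC1954 siAP2C against 16.3 in siNT.

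**Figure D3:**
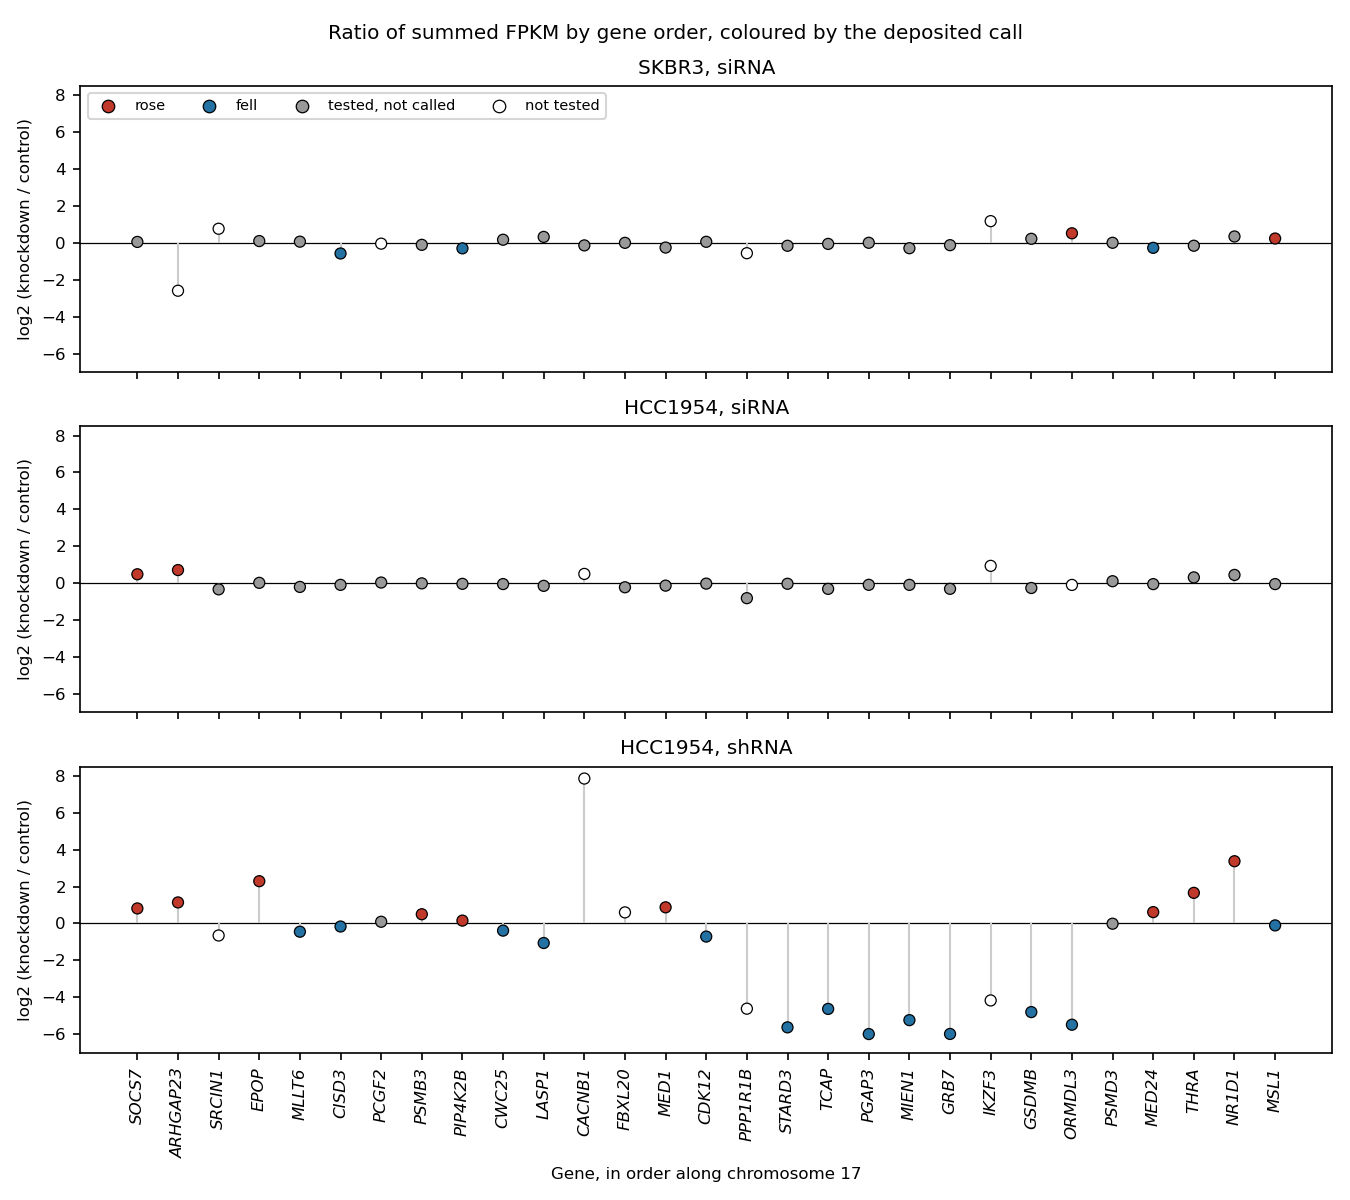
Log2 ratio of summed FPKM, knockdown over control, for the 29 described members that are not small RNA genes, in order along chromosome 17, with colours for the call of the leading entry in the deposited tables. In the shRNA panel the genes from PPP1R1B to ORMDL3 form a run at -4.17 or lower, bounded by CDK12 at -0.71 and PSMD3 at -0.02; the siRNA panels show no such run.

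With siRNA in HCC1954, 30 members were tested, 2 rose (SOCS7 and ARHGAP23) and 0 fell, against 2.24% and 0.944% of all tested symbols. An unadjusted p under 0.05 in the authors' deposited table was held by 7 members, against 1455 of all 11229 tested symbols. The median log2 ratio of 35 members was -0.09, with 26 lower and 9 higher in siAP2C. Over all symbols the median was -0.01, with 6596 lower and 6348 higher. Inside the run, 9 of 10 described members were lower in siAP2C than in siNT, IKZF3 being the exception, and none of the 9 tested was called. The leading entries there had wide errors: that of GRB7 had a log2 ratio of -0.56 with a 95% interval of -1.95 to 0.83, and that of STARD3 of -0.24 with an interval of -1.58 to 1.09. The log2 ratio of the leading entry with shRNA lies outside these intervals, but for both genes that is another entry. For the entry that leads with siRNA, the shRNA log2 ratio of GRB7 was -5.85, also outside. That of STARD3 was -0.559, inside the interval, but this entry was untested with shRNA and near 0 FPKM in both groups. For MIEN1 the interval with siRNA, -6.15 to 6.01, holds the log2 ratio of -5.29 seen with shRNA. The deposited statistic therefore does not tell these ratios apart. With the standard error taken from the authors' p-values, their difference of -5.22 was called by the z test described below (adjusted p = 0.0291).

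With siRNA in SKBR3, 24 members were tested, 2 rose (ORMDL3 and MSL1) and 3 fell (CISD3, PIP4K2B and MED24), against 12.5% and 20.6% of all tested symbols. The share called was below that background. The median log2 ratio of 29 members was -0.04, against -0.08 over all symbols, and no member from PPP1R1B to GSDMA fell although ERBB2, in the middle of them, did. The largest called shift was that of CISD3, which was 1.49-fold lower in siAP2C.

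For small shifts the deposited p-value and the deposited test statistic did not give the same answer. Of the 22 members called with shRNA, 16 had a 95% interval without 0 when the standard error was taken from the statistic, and 6 (CDK12, CISD3, CWC25, MED24, MSL1 and PIP4K2B) had an interval that held 0. The same was true of MED24, MSL1 and PIP4K2B among the 5 called in SKBR3, and of both members called with siRNA in HCC1954. The 7 falls inside the run all had intervals without 0.

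The shRNA and siRNA comparisons of HCC1954 use different control samples, so their log2 ratios could be compared by a z test on the leading entries, with Benjamini-Hochberg adjustment over all 9062 symbols compared. Of 23 members compared, 7 differed, against 13.4% of all symbols. From the authors' statistics, STARD3 was lower with shRNA than with siRNA by a log2 difference of -5.35 (SE 0.712, adjusted p = 7.66e-12), GSDMB by -4.89 (SE 1.21, adjusted p = 9.41e-04), PGAP3 by -5.66 (SE 1.52, adjusted p = 0.00303) and GRB7 by -5.64 (SE 1.76, adjusted p = 0.0148). From the same test on the authors' statistics, EPOP, NR1D1 and MED1 were higher with shRNA than with siRNA, by 2.27 (adjusted p = 2.93e-05), 2.93 (adjusted p = 0.00212) and 1.01 (adjusted p = 0.0174). The leading entry is not the same in the shRNA and siRNA tables for STARD3, PGAP3 and GRB7. With 1 accession used for all groups, the GRB7 difference from the authors' statistics was -5.29 (adjusted p = 0.636) and lost its call, and STARD3 and GSDMB could not be compared. MIEN1 and TCAP had differences of -5.22 and -4.32 with large errors from the authors' statistics (SE 3.13 and 1.72), which missed the threshold (adjusted p = 0.341 and 0.0800). Between the siRNA comparisons of SKBR3 and HCC1954, 22 members were compared and 0 differed by the z test, also 0 at an unadjusted p under 0.05, against 0.47% of all 9360 symbols called.

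Entries of 1 gene were split differently between tables, so single entries are a poor guide to a gene's level here. The GRB7 entry NM_001030002 held 1061 FPKM in HCC1954 siNT and 30.5 FPKM in HCC1954 shNT, and the STARD3 entry NM_006804 held 827 FPKM in siNT and 0.00247 FPKM in shNT. Summed levels of these genes differed less between the same controls, by 4.35-fold for GRB7 and 2.52-fold for STARD3. At the level of entries, 37 of the region were tested with shRNA, of which 9 rose and 25 fell, against 31.4% and 34.9% of all tested entries. Entries of 1 gene are not independent, and genes of the run such as GRB7 and PGAP3 add several falls each. By symbol, 13 of 24 tested members fell. With siRNA, 2 of 51 tested entries rose and 0 fell in HCC1954 (1.42% and 0.608% of all tested entries), and 2 of 39 rose and 3 fell in SKBR3 (9.81% and 15.3% of all).

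The 2 Mb on either side of the region were read in the same way. With shRNA, 14 of the 37 symbols before the region were tested, 2 rose and 8 fell, with a median log2 ratio of -0.25; of the 99 symbols after it, 28 were tested, 8 rose and 15 fell, with a median of -0.19, against 36.3% rising and 39.1% falling among all tested symbols. With siRNA in HCC1954 the medians were 0.04 before and 0.12 after the region, and with siRNA in SKBR3 they were -0.18 and -0.04. Large differences with shRNA were not particular to the run. Among the keratin genes nearly 2 Mb after ERBB2, the log2 ratio (pseudocount 0.1 FPKM) was -4.56 for KRT13, -7.005 for KRT15, -5.99 for KRT14, -5.10 for KRT16 and -10.58 for KRT17, and it was 4.98 for KRT19, which lies between them. KRT14 and KRT17 are also among the basal markers given above.

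**Figure D4:**
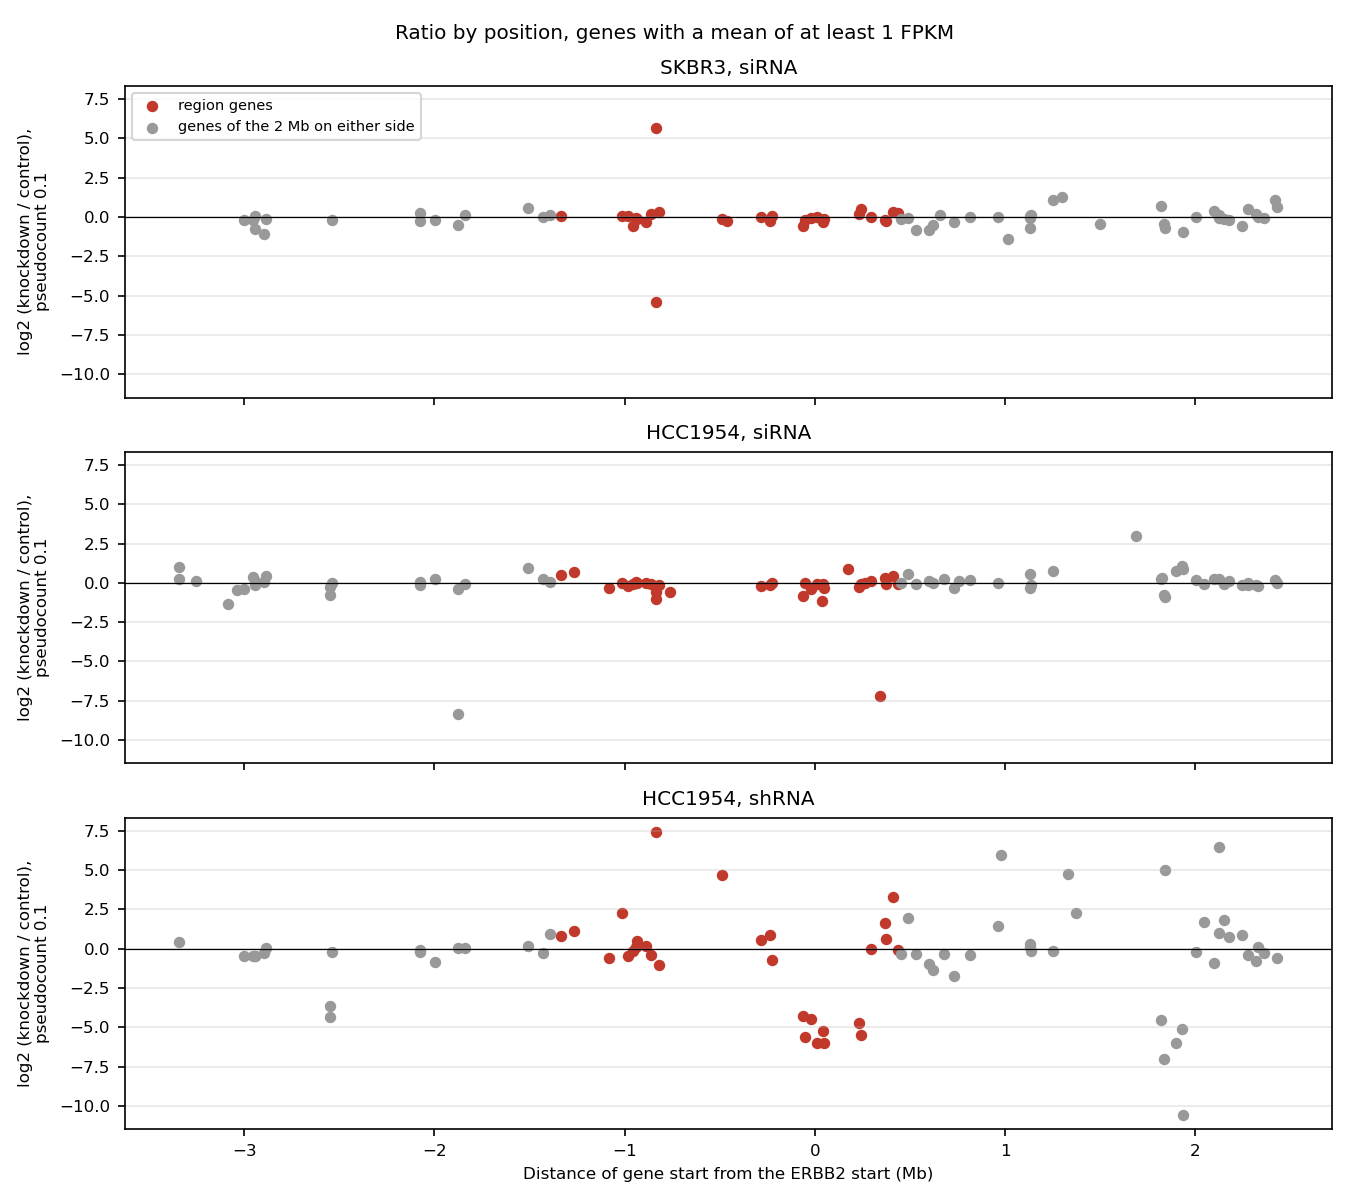
Log2 ratio of knockdown over control (pseudocount 0.1 FPKM) against distance of the gene start from the ERBB2 start in Mb, for genes with a mean of at least 1 FPKM; red points are members of the region, grey points are genes of the 2 Mb on either side. In the shRNA panel the red points near 0 Mb sit below -4, and no other plotted member lies below -1.06; single red points at the edges of the panels include SNORA21, SNORA21B and SNORD124, which are listed at 0 in 1 group of a pair.

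The small RNA genes of the region gave unsteady values. SNORA21 was listed at 17.2 FPKM in HCC1954 shAP2C against 0 in shNT, at 9.84 in HCC1954 siAP2C against 19.9 in siNT, and at 5.07 in SKBR3 siAP2C against 0 in siNT. SNORA21B was listed at 0 in both HCC1954 shRNA groups, at 9.13 FPKM in HCC1954 siAP2C against 14.0 in siNT, and at 0 in SKBR3 siAP2C against 4.12 in siNT. SNORD124 was listed at 14.9 FPKM in HCC1954 siNT and at 0 in the other 5 groups. These genes lie inside host genes (RPL23 for the SNORA21 copies, MED24 for SNORD124), and none of their tested differences was called.

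Of the 21 members below 5 FPKM, 5 microRNA genes (MIR4734, MIR4726, MIR4727, MIR6779 and MIR6884) were at 0 in all 6 groups, and the other 16 were above 0 in at least 1 group, with 3.32 FPKM as the highest level, that of the entry NR_038847 in HCC1954 siNT. Inside the run, PNMT, which converts noradrenaline to adrenaline, was listed at 0 in HCC1954 shAP2C against 0.975 FPKM in shNT, at 2.33 in HCC1954 siAP2C against 3.11 in siNT, and at 0.264 in SKBR3 siAP2C against 0.763 in siNT. GSDMA, the other gasdermin, was listed at 0 in HCC1954 shAP2C against 0.998 FPKM in shNT, and at 1.19 FPKM in HCC1954 siAP2C against 1.17 in siNT. The cytokine gene CSF3, which encodes granulocyte colony-stimulating factor, did not exceed 0.0743 FPKM. STAC2, which lies before the run, was listed at 0 in HCC1954 siAP2C against 0.178 FPKM in siNT and at 1.68 in SKBR3 siAP2C against 1.98 in siNT. Over all 54 members, 32 were tested in at least 1 comparison, 21 in all 3, and 0 were called in all 3. With siRNA in HCC1954 only 3.19% of all tested symbols were called. The share of all symbols called in all 3 was not worked out, so the 0 is not a trait of the region.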

How the data were processed

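RNA of HCC1954 and SKBR3 cells was read from the authors' comparison tables, 3 genome-wide and 1 of 68 entries, per the file headers. Per the submitters' processing notes, the tools were Bowtie 0.12.2 and Cuffdiff (no version stated), with hg19 and GRCh37 as builds. FPKM values, 1 per RefSeq entry and group with the samples pooled, are the authors' own. The test statistic, a score of the authors' tool, and the p-value and q-value were used as deposited. No column holds a single sample, so depth, replicate spread and intervals for single levels could not be had. In 1 table the column names give the siRNA but no line, and HCC1954 was read from the name of that deposited file.

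FPKM was summed over 66321 entries to 28284 symbols (853 entries had none). Adjusting the deposited p by Benjamini-Hochberg over tested entries returned the deposited q, with 0 calls that differed; the smallest p was 5e-05. Medians used log2 of FPKM plus 0.1 and symbols with a mean of at least 1 FPKM. Members with 5 FPKM in a group were named singly. The z test used the log2 ratio over the deposited statistic as standard error. It was run on data simulated with those same standard errors, which cannot show whether they are right. Promoters and microRNAs are RefSeq's, and GRCh37 positions of genes are from a GENCODE annotation. The members, lists and stretches were chosen with earlier results of these data known. Python 3.11.15, pandas 2.3.3 and scipy 1.17.1 were used. Alternatives were another q threshold, accession, filter, pseudocount, centring and standard error, and leaving out members that share a locus.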

Additional observations from a re-analysis of the deposited data

Results flagged for a closer look

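In 7 of 23 members compared, the change with shRNA differed from the change with siRNA in HCC1954, against 13.4% of all 9062 symbols compared. This was by the z test of the difference between log2 ratios of leading entries. The difference, shRNA minus siRNA, was -5.66 for PGAP3, -5.64 for GRB7, -5.35 for STARD3 and -4.89 for GSDMB, all inside the run around ERBB2. The leading entries compared differ between the tables for STARD3, PGAP3 and GRB7, and with 1 accession for all groups the call was lost for GRB7 (-5.29, adjusted p = 0.636 from the authors' statistics) and could not be made for STARD3 and GSDMB. The difference was 2.93 for NR1D1, 2.27 for EPOP and 1.01 for MED1, all outside it. TFAP2C itself was 23.4-fold lower with shRNA and 4.20-fold lower with siRNA, and the part of that difference in the 7 was not tested. The shRNA groups were stable clones and the siRNA groups transient transfections, which cannot be told apart from the reagent.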

How the results depend on the processing

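No paired analysis was possible because the tables hold no column of a single sample, so replicates could not be left out either, and other normalizations or a count model could not be run. At a q threshold of 0.01, members called in SKBR3 went to 1 rise and 1 fall, and in HCC1954 with siRNA to 1 rise; without members that share a deposited locus, SKBR3 had 1 fall. The SKBR3 median log2 ratio was 0 without a filter, 0.034 when centred on all symbols and 9.2e-04 without members that share a locus, against -0.04; the shRNA median was 0 without a filter, against -0.11. Members that differed between shRNA and siRNA in HCC1954 were 13 when the deposited p gave the standard error and 4 with 1 accession for all groups (EPOP, NR1D1, MED1 and PGAP3), against 7; under it STARD3 and GSDMB were untested with shRNA and GRB7 lost its call. The other 58 summary values kept their direction, counts within 1.5-fold and medians within a 1.5-fold change of the ratio; among them, without members that share a locus the shRNA median was -0.25 and the HCC1954 siRNA median -0.05, and without a filter the HCC1954 siRNA median was -0.04, against -0.09. For single members, 122 alternatives left the result as it was, called or not called, 6 gained a call, 12 lost it and 0 reversed. Within a comparison, centring and summing over entries reused the deposited q-value. Only the sign could change there, so these alternatives could not lose a call. The cause of these shifts was not tested. Unknown depth and pooled values limit all comparisons of low members.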
